A study of Mus musculus with 96 samples.

Results

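The 10 genes described here encode the enzymes that put methyl groups on lysine 4 of histone H3 or take them off: the methyltransferases Kmt2a, Kmt2b, Kmt2c, Kmt2d, Setd1a and Setd1b and the demethylases Kdm5a, Kdm5b, Kdm1a and Kdm1b. Their members were the consensus peaks whose deposited gene symbol is one of these names, 20 of 22815 peaks in 6 tables. H3K4me3 had 11 of these peaks in NeuN+ and 7 in NeuN- nuclei, Suz12 had 1 in each fraction, both at Kmt2a, and H3K27me3 had 0 in either fraction. None of the 20 peaks had an adjusted p under 0.05 in any knockout, and 2 of their 60 changes against WT met the unadjusted rule for a differentially enriched region, both lower Suz12 at Kmt2a in NeuN- nuclei, in Ogg1-/- and DKO, where 11.2% and 6.73% of all 312 peaks met it. Neither was called without WT replicate 1.

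The study sorted hippocampal nuclei of 6-month-old male C57BL/6N mice on NeuN, a nuclear protein of neurons, and did chromatin immunoprecipitation and sequencing with antibodies to 2 histone marks, H3K4me3 and H3K27me3, and to Suz12, which is part of PRC2, a Polycomb complex. Besides WT there were Ogg1-/- mice, Mutyh-/- mice and mice without either gene (DKO, labelled Mutyh-/-xOgg1-/-). Ogg1 is the DNA glycosylase that removes 8-oxoguanine, and Mutyh removes the adenine paired with it. A sample was a pool of hippocampi of 5 animals of 1 genotype, and each genotype had 3 replicates in each of the 6 tables, 72 libraries in all. NeuN- nuclei are mostly glia of several kinds and were not divided further, and a lower signal can mean that fewer nuclei carry the mark or that each carries less of it, which cannot be told apart.

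Methylation of H3K4 is graded: the trimethylated form lies at the starts of transcribed genes, and the monomethylated form at enhancers. Setd1a and Setd1b, in complexes with Cxxc1, make most of the trimethylated form, Kmt2a and Kmt2b act at subsets of CpG-rich promoters through a CXXC domain that binds unmethylated CpG, and Kmt2c and Kmt2d mainly monomethylate enhancers. Kdm5a and Kdm5b remove tri- and dimethylation with a Jumonji domain, and Kdm1a and Kdm1b, which are flavin-dependent amine oxidases, remove di- and monomethylation. Loss-of-function variants of several of these genes cause disorders with intellectual disability. The data give chromatin at the genes for these enzymes, and neither their transcripts nor their activity.

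The promoters of 4 genes are printed because the results turn on them, Kmt2a for Suz12 and Kmt2d, Setd1a and Kdm1b for the H3K4me3 peaks whose calls depended on the scaling of the libraries. Each runs from 250 bases before to 50 bases from the RefSeq start (GRCm38.p6), 5′ to 3′ on the strand of the gene, with CpG in capitals. The H3K4me3 window in NeuN+ nuclei covers 184 of the 300 bases for Setd1a, 90 for Kmt2d and 0 for Kdm1b and for Kmt2a. The letters counted here are therefore those of the printed promoters and not those of the H3K4me3 windows.
Kmt2a, chr9:44881240-44881539, minus strand: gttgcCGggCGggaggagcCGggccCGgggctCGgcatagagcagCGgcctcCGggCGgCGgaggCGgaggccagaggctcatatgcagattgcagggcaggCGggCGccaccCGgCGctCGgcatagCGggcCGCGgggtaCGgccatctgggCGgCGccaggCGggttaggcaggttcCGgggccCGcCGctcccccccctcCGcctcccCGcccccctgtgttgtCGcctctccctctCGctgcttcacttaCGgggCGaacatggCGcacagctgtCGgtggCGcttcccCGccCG
Kmt2d, chr15:98871156-98871455, minus strand: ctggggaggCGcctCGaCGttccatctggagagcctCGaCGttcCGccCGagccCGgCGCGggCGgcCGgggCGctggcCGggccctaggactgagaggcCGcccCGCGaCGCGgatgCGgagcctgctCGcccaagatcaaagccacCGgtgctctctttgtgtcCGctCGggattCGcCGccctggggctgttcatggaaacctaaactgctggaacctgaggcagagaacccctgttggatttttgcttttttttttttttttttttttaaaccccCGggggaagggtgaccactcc
Setd1a, chr7:127777139-127777438, plus strand: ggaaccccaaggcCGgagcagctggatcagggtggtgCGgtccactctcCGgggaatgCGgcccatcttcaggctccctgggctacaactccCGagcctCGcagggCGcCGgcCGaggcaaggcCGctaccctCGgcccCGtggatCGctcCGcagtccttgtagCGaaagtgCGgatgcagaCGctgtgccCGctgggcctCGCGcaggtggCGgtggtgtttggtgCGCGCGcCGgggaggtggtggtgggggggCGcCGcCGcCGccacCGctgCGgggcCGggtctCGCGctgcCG
Kdm1b, chr13:47043249-47043548, plus strand: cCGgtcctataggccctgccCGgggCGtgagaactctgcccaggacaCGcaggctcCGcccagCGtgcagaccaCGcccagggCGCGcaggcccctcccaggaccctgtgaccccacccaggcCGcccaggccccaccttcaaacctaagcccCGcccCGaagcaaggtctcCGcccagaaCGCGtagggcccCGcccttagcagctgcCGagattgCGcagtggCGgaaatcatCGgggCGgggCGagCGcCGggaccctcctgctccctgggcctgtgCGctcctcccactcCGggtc
The Kmt2a promoter holds 36 CpG, the Setd1a promoter 35, the Kmt2d promoter 27 and the Kdm1b promoter 26, where the median of all 32851 promoters of this length is 7. The letters CCGCCC, on either strand, occur 5 times in the Kmt2a, 4 times in the Kmt2d and 6 times in the Kdm1b promoter and 0 times in that of Setd1a, and 35.7% of all promoters hold them at least once. The letters TATAAA occur in none of these 4 promoters on either strand, and 13.6% of all promoters hold them. RefSeq promoters were matched for 7 of the 10 genes, which were Kmt2a, Kmt2c, Kmt2d, Setd1a, Kdm5b, Kdm1a and Kdm1b.

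Most H3K4me3 promoter windows of the members in NeuN+ nuclei were above the median promoter window in GC content and in CpG. A value is the number of reads in a counting window of 401 bp in a consensus peak, divided by a factor for the library, and is called normalised reads here. In NeuN+ nuclei, the GC content of the 10 promoter windows was between 62.6% (Kdm5a) and 79.8% (Kmt2d), and 9 of them were above 67.1%, the median of 11771 promoter windows. The ratio of observed to expected CpG was between 0.706 (Kmt2a) and 1.00 (Setd1a), and 8 were above the median of 0.800. CCGCCC occurred in 9 of the 10 windows, all but that of Kmt2a, and in 69.3% of all promoter windows, and TATAAA in 0 of the 10 and in 3.15%. These are descriptions of the letters in the windows, without a test.

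Most of these windows lay near an annotated start of another gene, and position alone does not give such a window to 1 gene. In GENCODE vM21, 7 of the 10 windows had the start of another gene within 1000 bp: Kdm5a with Ccdc77, Kdm1b with Tpmt, Setd1b with AI480526, Kmt2c with 4831440E17Rik, Kmt2b with Mir3569, Kmt2a with AC061963.1, and Kmt2d with 5730414N17Rik and Gm49437. Of these neighbours, Gm49437 lies on the strand of its member and the others lie on the opposite strand. The windows of Kdm5b, Kdm1a and Setd1a had no other start so near. The same share over all promoter windows was not counted, and whether a promoter serves both genes was not tested. The Kmt2d window in NeuN+ nuclei (chr15:98871366-98871766) had its centre at -362 bp, upstream of the 5′ end of the gene, and touched none of its exons. The other 9 windows had their centres inside a transcript of their gene and touched an exon of it.

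The tables held between 96023 and 548706 reads in peaks per library for H3K4me3 in NeuN+ nuclei, between 39320 and 120004 in NeuN- nuclei, and between 6652 and 33035 (NeuN+) and 11887 and 66148 (NeuN-) for Suz12. For Suz12, 1 window in each fraction, annotated to Lrrc4c, held 57.1% to 73.8% of these reads in NeuN- and 7.23% to 45.8% in NeuN+ libraries. The Suz12 totals therefore do not compare the depth of the fractions at other windows. A member window held between 3 and 95 reads in a library for H3K4me3 NeuN+ and between 1 and 25 for H3K4me3 NeuN-, and counting error alone is large at the low end. As a check of the sort, 7 of 7 neuronal marker genes (Rbfox3, Syt1, Snap25, Camk2a, Grin1, Slc17a7 and Gad1) had an H3K4me3 promoter peak in NeuN+ and 0 of 7 in NeuN- nuclei. Of 14 non-neuronal markers, 3 had one in NeuN+ nuclei (Slc1a3, Mbp and Oaf) and 2 in NeuN- nuclei (Olig1 and Oaf), and the defining genes Gfap, Aqp4, Mog, Cx3cr1 and Csf1r had one in neither. Ogg1 had an H3K4me3 promoter peak in NeuN+ nuclei, with 15.4, 5.85 and 10.8 normalised reads in WT, 17.9, 6.15 and 13.8 in Ogg1-/- and 0, 14.5 and 5.31 in DKO. Its log2 fold change was 0.20 in Ogg1-/- and -1.25 in DKO, neither of them called, and histone methylation at a promoter does not check a deletion elsewhere in the gene. No peak analysed here was annotated to Mutyh.

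All 10 genes carried H3K4me3 at their promoter in NeuN+ nuclei, at levels mostly in the upper part of all promoters. Kdm5b and Kdm1a stood highest, and Setd1a lowest among the promoters. The rank of a peak is given as its percentile among the promoter peaks of the same library, since levels cannot be compared between separately scaled tables. The median percentile over 12 libraries was 94.4 for Kdm5b, 89.9 for Kdm1a, 86.7 for Kmt2c, 84.7 for Kmt2b, 80.7 for Kmt2d, 78.7 for Kdm1b, 75.5 for Kdm5a, 74.6 for Setd1b, 68.6 for Kmt2a and 38.0 for Setd1a. A further peak of Kdm5b, in the intergenic sequence upstream of its start (chr1:134556667-134557067), had a median percentile of 32.7 and between 6.77 and 30.8 normalised reads, against 21.8 to 73.1 at the Kdm5b promoter.

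The order of the levels was loose. Ordered by mean log2(value + 1), no peak differed from the next by more than the SD of that difference over the 12 libraries. The widest step was between Kmt2a and Setd1a, 0.58 ± 0.63 on the log2 scale (SD, n = 12), with Kmt2a higher in 9 of 12 libraries. The Kdm5b promoter (first) was above the distal Kdm5b peak (last) by 1.15 ± 0.38 (SD, n = 12), in 12 of 12 libraries. Both were picked as the extremes of the mean over these same libraries, so a gap above 0 was built in. The last is an intergenic peak, so this gap does not test the order among the promoters. Single libraries moved far in rank, and Kdm1b lay between the percentiles 22.8 (WT replicate 2) and 97.9 (Mutyh-/- replicate 2).

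**Figure D1:**
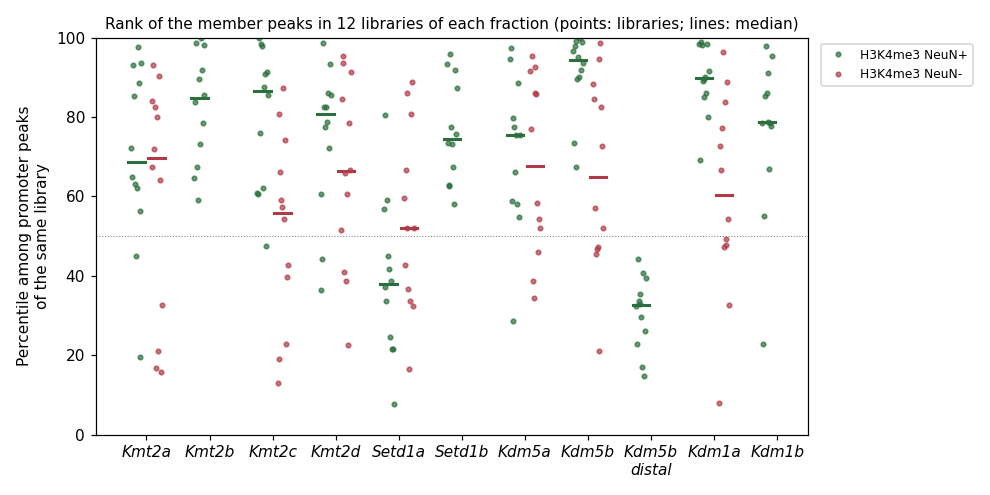
Percentile (0 to 100) of each member peak among the promoter peaks of the same H3K4me3 library, with 12 libraries per fraction as points and their median as a line. In NeuN+ nuclei the Kdm5b and Kdm1a promoters lie highest and Setd1a and the distal Kdm5b peak have medians under 50, and in NeuN- nuclei, where Kmt2b, Setd1b and Kdm1b have no peak, the 7 medians lie between 52.0 and 69.8.

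In NeuN- nuclei, 7 of the 10 genes had an H3K4me3 consensus peak, and Kmt2b, Setd1b and Kdm1b had none. Medians of the percentile ran from 52.0 for Setd1a and 55.7 for Kmt2c over 60.5 for Kdm1a, 64.9 for Kdm5b, 66.4 for Kmt2d and 67.7 for Kdm5a to 69.8 for Kmt2a. The order could not be told apart even from end to end: Kdm5a, first by mean log2(value + 1), exceeded Kmt2c, the last, by 0.47 ± 0.89 (SD, n = 12), in 8 of 12 libraries. The NeuN- table held 3270 peaks against 12628 in NeuN+ nuclei, from fewer reads, so the lack of a consensus peak at 3 genes means that none was called at this depth.

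Across the 12 NeuN+ libraries, the level of the members followed that of all promoters. The mean log2(value + 1) of their 10 promoter windows ran from 4.49 in WT replicate 2 to 5.54 in Ogg1-/- replicate 3, and the mean of all promoter windows was between 3.88 and 5.02. The 2 means had a Pearson r of 0.96 over the 12 libraries, which share their depth and scaling. Of the single members, Kdm5b followed the members' mean most closely (r = 0.95) and Kmt2d least (r = 0.54). Each member is part of that mean, so part of its r was built in. The median promoter peak had an r of 0.62, above Setd1a (0.60), Kmt2a (0.59), Kdm5a (0.56) and Kmt2d. The other genes whose promoter peak was most like this mean were Plod2, a lysyl hydroxylase of collagen (r = 0.97), Wdr43, a factor of ribosome assembly (r = 0.96), and Slc25a51, the mitochondrial carrier of NAD (r = 0.95), all over 12 libraries. The members were above the mean of all promoters by 0.42 to 0.71 in each library.

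The first comparison asked whether loss of a glycosylase changed H3K4me3 at the genes for the methyltransferases in neurons. Kmt2d, which monomethylates H3K4 at enhancers, had higher mean values in all 3 knockouts. Setd1a, which makes the trimethylated form, had a lower one in DKO. Neither met the rule for a called peak in the main fit. The rule calls a differentially enriched region (DER) at an unadjusted p under 0.05 with an absolute log2 fold change over 0.5. The study took this p from edgeR, and here it came from limma on log2(value + 1). None of the 33 member changes was called in NeuN+ nuclei, beside 0.911%, 0.966% and 1.46% of all peaks for Mutyh-/-, Ogg1-/- and DKO. Log2 fold changes ran from -0.92 to 0.62 with SEs of 0.39 to 0.54, 13 were above 0 and 20 below, and 8 exceeded 0.5 in size. With SEs of this size, a p over the threshold does not show that the levels were equal. For single peaks an exact two-sided permutation test of log2(value + 1) over the libraries is given beside the fit; with 3 libraries against 3 it cannot go below p = 0.1.

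At Kmt2d, the WT libraries gave 23.2, 19.5 and 23.7 normalised reads, those of Mutyh-/- 38.1, 30.3 and 35.0, those of Ogg1-/- 35.7, 23.6 and 48.4, and those of DKO 22.6, 44.2 and 36.4. The 3 WT libraries lay close together at the bottom, and all 3 Mutyh-/- libraries were above all of them, a pattern that 2.16% of all peaks showed. In Ogg1-/- and DKO the ranges overlapped that of WT, each through 1 library. The log2 fold changes were 0.62 ± 0.39 (SE) for Mutyh-/-, 0.62 ± 0.39 for Ogg1-/- and 0.57 ± 0.39 for DKO, and the exact permutation p was 0.1, 0.2 and 0.3. Without Ogg1-/- replicate 2, the lowest of its group, the change in Ogg1-/- was 0.89 and met the rule (limma adjusted p = 0.914), and without Ogg1-/- replicate 3, the highest, it was 0.38. The change in DKO was 0.37 without DKO replicate 2, the highest of its group. The 3 comparisons share the same WT libraries, so their common direction is not 3 observations. Means were 22.1 ± 2.27 in WT, 34.5 ± 3.94 in Mutyh-/-, 35.9 ± 12.4 in Ogg1-/- and 34.4 ± 10.98 in DKO (SD, n = 3).

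At Setd1a, the WT libraries gave 29.6, 24.4 and 21.5 normalised reads and the DKO libraries 9.02, 18.5 and 12.1. Before scaling these were 23, 25 and 20 reads in WT and 4, 23 and 16 in DKO. DKO replicate 1 had 96023 reads in peaks, the fewest of the H3K4me3 NeuN+ libraries. All 3 DKO libraries were below all WT libraries, as at 1.92% of all peaks in that direction. The mean was 13.2 ± 4.83 in DKO against 25.2 ± 4.08 in WT (SD, n = 3), a log2 fold change of -0.92 ± 0.49 (SE) for which the unadjusted limma p was 0.0658 and the adjusted one 1.00. By the exact permutation test p was 0.1. Leaving out 1 library gave changes in DKO between -0.70 and -1.18, and the rule was met without DKO replicate 2 (-1.18, limma adjusted p = 0.999) and without Ogg1-/- replicate 2 (-0.92, limma adjusted p = 1.00). The Mutyh-/- libraries, with 14.2, 23.9 and 25.4, and the Ogg1-/- libraries, with 22.6, 11.3 and 30.0, overlapped WT.

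These calls depended on how the libraries were scaled. With TMM factors on the recovered reads in place of the factors of the authors, 6 member changes met the rule in limma. Kmt2d was higher in Mutyh-/- by 0.69 ± 0.24 (SE), in Ogg1-/- by 0.55 and in DKO by 0.57, Kdm1b was higher in Mutyh-/- by 0.67 ± 0.26 and in DKO by 0.55, and Setd1a was lower in DKO, at -0.92 ± 0.34. The adjusted limma p was 0.845 or more for each of these. The TMM fit called 3.75%, 3.81% and 5.54% of all peaks in Mutyh-/-, Ogg1-/- and DKO, more than the fit above, while the sizes of the changes differed little and their SEs were smaller. With edgeR, the tool of the study, on the factors of the authors, 0 were called. On TMM factors, edgeR called Kmt2d in Mutyh-/-, Ogg1-/- and DKO, Kdm1b in Mutyh-/- and Setd1a in DKO. None of these had an adjusted edgeR p under 0.05, and the share of all peaks called by that fit is not given here.

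The other methyltransferases showed smaller differences between means than between libraries of 1 genotype. Kmt2a had 34.7, 20.5 and 42.0 normalised reads in WT and 18.0, 17.7 and 40.9 in DKO, and its 3 changes lay between -0.38 and 0.22. Kmt2b, the close paralogue of Kmt2a, ran from 21.8 to 52.3 over the 12 libraries, with changes between -0.32 and 0.28. Kmt2c, the partner enzyme of Kmt2d at enhancers, spread most within WT, at 30.9, 19.5 and 68.9, so that its WT mean of 39.8 had an SD of 25.9. Setd1b, the paralogue of Setd1a, gave 46.3, 22.4 and 29.1 in WT and 31.6, 35.4 and 37.1 in DKO, with changes between -0.10 and 0.15.

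None of the demethylases was called in NeuN+ nuclei either. Kdm1b, a demethylase known from oocytes, had the largest positive changes among them. Its WT libraries gave 37.3, 11.7 and 26.9 normalised reads, those of Mutyh-/- 27.2, 40.4 and 38.5, those of Ogg1-/- 40.5, 23.6 and 40.0, and those of DKO 24.8, 36.2 and 42.5. WT replicate 2 was the lowest of all 12 libraries, and the groups overlapped. The log2 fold changes were 0.59 ± 0.42 (SE), 0.54 ± 0.42 and 0.54 ± 0.42, and the exact permutation p was 0.2, 0.5 and 0.5. Without WT replicate 1, the highest of its group, the change in Mutyh-/- was 0.93 and met the rule (limma adjusted p = 1.00). Without WT replicate 2, the lowest, the changes were 0.13, 0.09 and 0.08 in Mutyh-/-, Ogg1-/- and DKO, so most of their size rested on that library.

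Kdm5a, whose Jumonji domain removes tri- and dimethylation, had 47.6, 33.2 and 28.0 normalised reads in WT and 13.1, 29.4 and 35.0 in Mutyh-/-, a log2 fold change of -0.55 ± 0.40 (SE, exact permutation p = 0.5). Mutyh-/- replicate 1 alone was below the lowest WT library. Its paralogue Kdm5b reached the highest value of the members and ran from 21.8 in Mutyh-/- replicate 1 to 73.1 in Ogg1-/- replicate 3, and changes between -0.16 and 0.23 at the promoter. The distal Kdm5b peak changed by -0.03, -0.05 and -0.29 with an SE of 0.54. Kdm1a, the LSD1 demethylase of the CoREST complex, changed by -0.09, -0.09 and -0.01, with means of 42.4 ± 18.2 in WT, 36.8 ± 3.62 in Mutyh-/-, 37.7 ± 10.4 in Ogg1-/- and 39.0 ± 1.84 in DKO (SD, n = 3).

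The members include neighbours of the deleted genes on their chromosomes: Kdm5a lies 7.04 Mb from Ogg1 on chromosome 6 and Kdm1a 19.7 Mb from Mutyh on chromosome 4. Neither was called in the knockout of the nearby gene, with -0.27 ± 0.40 (SE) for Kdm5a in Ogg1-/- and -0.09 ± 0.39 for Kdm1a in Mutyh-/-.

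**Figure D2:**
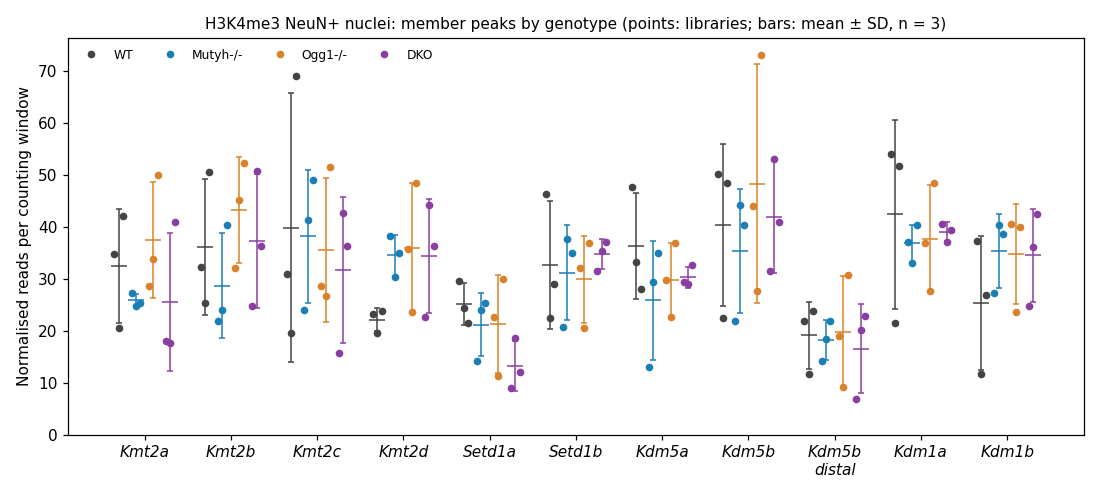
Normalised H3K4me3 reads at the 11 member peaks in NeuN+ nuclei, by genotype, with 1 point per library and the mean ± SD of 3 libraries as bars. The 3 WT libraries of Kmt2d, between 19.5 and 23.7, lie below all Mutyh-/- libraries, the 3 DKO libraries of Setd1a, between 9.02 and 18.5, lie below WT, and the genotypes of the other peaks overlap.

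In NeuN- nuclei the question was the same, and none of the 21 member changes for H3K4me3 was called, beside 2.94%, 3.36% and 2.29% of all peaks in Mutyh-/-, Ogg1-/- and DKO. Log2 fold changes ran from -1.15 to 1.17, with SEs of 0.63 to 0.80, wider than in NeuN+ nuclei. Kmt2c and Kdm1a were above WT on average in all 3 knockouts, and Kmt2a and Kdm5a below, and in each of these the libraries overlapped. In NeuN- nuclei all peaks shifted by a median of 0.22 for Mutyh-/-, 0.25 for Ogg1-/- and 0.05 for DKO on the same scale, and the members by -0.09, -0.07 and -0.06.

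Kmt2c gave 4.15, 13.4 and 2.36 normalised reads in the WT libraries, 16.2, 11.2 and 8.13 in Mutyh-/-, 21.8, 7.18 and 14.2 in Ogg1-/- and 11.1, 5.00 and 5.59 in DKO. WT replicate 2 stood among the knockouts, and the change was 1.17 ± 0.79 (SE) for Ogg1-/- with an exact permutation p of 0.2. Kmt2a gave 18.0, 11.03 and 14.2 in WT and 17.6, 2.14 and 4.47 in DKO, a change of -1.15 ± 0.80 (SE, exact permutation p = 0.3). Without DKO replicate 1, the one DKO library at the level of WT, the change was -1.87 and met the rule (limma adjusted p = 0.680), and without DKO replicate 2, the lowest, it was -0.58.

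Kdm1a gave 2.77, 11.8 and 8.27 in WT and 18.1, 20.7 and 6.50 in Mutyh-/-, a change of 0.93 ± 0.75 (SE, exact permutation p = 0.3). Kdm5a gave 20.7, 12.6 and 15.4 in WT and 14.9, 6.43 and 6.70 in DKO, a change of -0.80 ± 0.63 (SE, exact permutation p = 0.2). In both, 1 library of the knockout lay within the range of WT. Kdm5b, Kmt2d and Setd1a changed by between -0.62 and 0.17, with SEs of 0.65 to 0.76. Kmt2d, above WT on average in all 3 knockouts in NeuN+ nuclei, was at -0.09, -0.62 and -0.04 here.

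**Figure D3:**
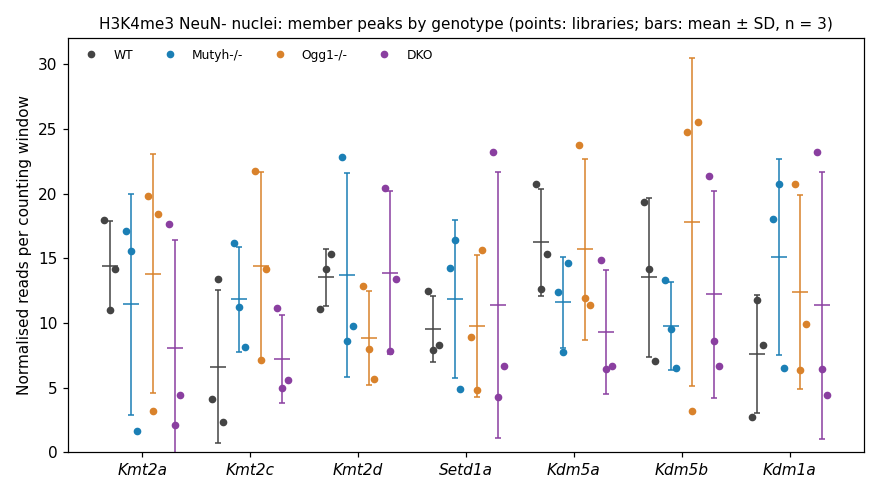
Normalised H3K4me3 reads at the 7 member peaks in NeuN- nuclei, by genotype, with 1 point per library and the mean ± SD of 3 libraries as bars, which are cut at 0. At no peak do all 3 libraries of a knockout lie above or below all WT libraries, and single libraries go as low as 1.63 at Kmt2a.

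**Figure D4:**
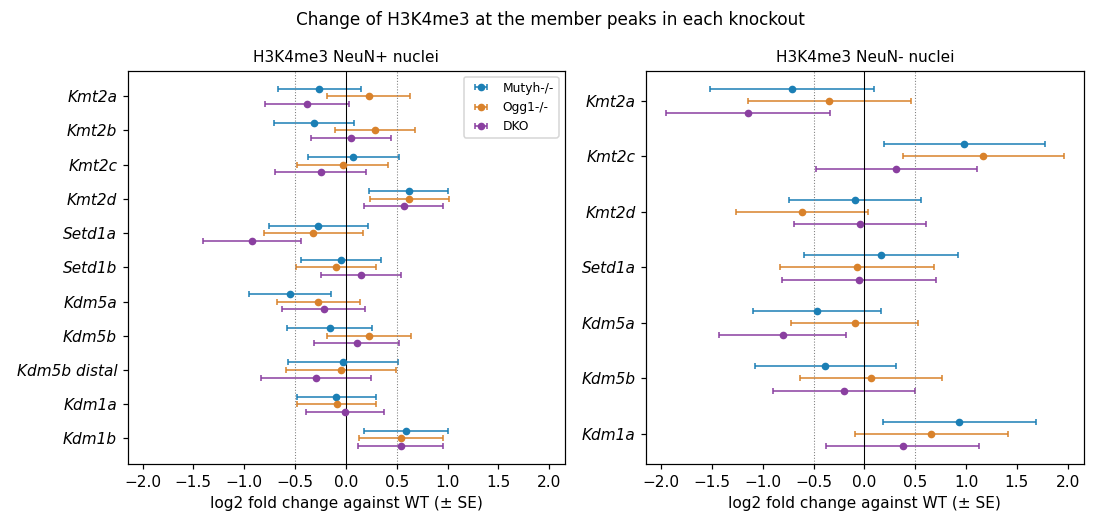
Log2 fold change of H3K4me3 against WT, on the log2(value + 1) scale with its SE, for each member peak in each knockout, NeuN+ nuclei on the left and NeuN- nuclei on the right, with dotted lines at an absolute change of 0.5. In NeuN+ nuclei, Kmt2d and Kdm1b lie right of 0.5 in all 3 knockouts and Setd1a in DKO lies at -0.92, and none of the changes in either fraction was called.

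Whether a knockout acted differently at these genes in the 2 fractions was tested on the difference of the 2 changes, over 3000 H3K4me3 peaks that overlapped one to one. The study collected both fractions when it sorted the nuclei, and this fit, like that for Suz12 below, did not pair them. Pairing by genotype and replicate number was fitted as an alternative only. None of the 21 member differences had a limma p under 0.05, beside 2.3%, 1.8% and 1.8% of all these peaks for Mutyh-/-, Ogg1-/- and DKO. The nearest was Kmt2d in Ogg1-/-, whose change was higher in NeuN+ than in NeuN- nuclei by 1.24 ± 0.72 (SE), for which the unadjusted limma p was 0.0923 and the adjusted one 1.00. Kmt2c in Ogg1-/- went the other way, by -1.20 ± 0.85 (SE, limma adjusted p = 1.00). In the 2 x 2 design of the knockouts, the departure of DKO from the sum of both single knockouts was called at none of the 18 H3K4me3 peaks of the members, beside 0.839% of all peaks in NeuN+ and 3.03% in NeuN- nuclei. The smallest unadjusted limma p was 0.106, for Kmt2c in NeuN- nuclei (-1.84 ± 1.12, SE, limma adjusted p = 0.994).

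Suz12 was found at 1 member, Kmt2a, and there in both fractions. In NeuN- nuclei its level was lower than in WT in Ogg1-/- and DKO, and neither of these changes was called without WT replicate 1. The Suz12 windows (chr9:44881247-44881647 in NeuN+ and chr9:44881264-44881664 in NeuN- nuclei) cover the annotated 5′ end of Kmt2a and 293 and 276 of the 300 bases printed above. The H3K4me3 windows of Kmt2a lie further into the gene, over another annotated start, with centres 564 bp (NeuN+) and 650 bp (NeuN-) from those of Suz12. The centre of the Suz12 window was at -151 bp (NeuN+) and -168 bp (NeuN-), upstream of the 5′ end of the gene, and that of the H3K4me3 window at 413 bp and 482 bp, downstream of it. The GC content of the Suz12 windows was 74.6% and 75.3%.

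PRC2 makes H3K27me3, but no H3K27me3 peak lay near Kmt2a: the nearest was 104270 bp from the Suz12 window in NeuN+ nuclei, at Cd3d, and 162421 bp in NeuN- nuclei, at Mpzl2. Of the Suz12 promoter peaks, 78.8% of 471 in NeuN+ and 55.4% of 56 in NeuN- nuclei had an H3K27me3 peak within 5000 bp, a distance chosen after the values at Kmt2a had been seen. Among all members, the H3K27me3 peak nearest to a promoter window was that of Dhh, 25723 bp from the Kmt2d window in NeuN- and 25838 bp in NeuN+ nuclei.

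In NeuN- nuclei, Suz12 at Kmt2a was 131, 11.6 and 16.5 normalised reads in the WT libraries, 18.7, 4.36 and 30.2 in Mutyh-/-, 3.68, 5.37 and 7.15 in Ogg1-/- and 2.70, 3.70 and 5.75 in DKO. WT replicate 1 was above all other libraries, with 117 reads against 3 to 21, and all Ogg1-/- and DKO libraries were below all WT libraries, a pattern shown by 2.88% and 3.21% of all peaks in that direction. The log2 fold change was -2.30 ± 1.09 (SE) in Ogg1-/- (unadjusted limma p of 0.0344, 0.412 after adjustment), and -2.65 ± 1.09 in DKO (0.0148, and 0.651 after adjustment). In Mutyh-/- it was -1.05 ± 1.09 (exact permutation p = 0.6) and not called. The rule called 3.85% of all 312 peaks in Mutyh-/-, 11.2% in Ogg1-/- and 6.73% in DKO. By the exact permutation test p was 0.1 for Ogg1-/- and for DKO, and all 3 contrasts share the WT libraries.

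Without WT replicate 1, the change in Mutyh-/- was 0.00, and the changes were -1.25 ± 1.16 (SE) in Ogg1-/- and -1.60 ± 1.16 in DKO, with adjusted limma p-values of 0.709 and 0.882, and neither was called. Without Ogg1-/- replicate 1 or replicate 2, the change in Ogg1-/- was not called, with an unadjusted limma p of 0.0791 and 0.0600. The SE here came from the trend over all peaks, because limma gave infinite prior degrees of freedom in both Suz12 tables, and the spread of the peak itself did not enter it. With robust moderation, the call was lost in Ogg1-/- (unadjusted limma p of 0.0567) and kept in DKO (0.0281). WT replicate 1 also stood apart at other promoters: it held the highest value at 19 of the 56 Suz12 promoter peaks, against 0 to 9 in the other 11 libraries. Of its reads in peaks, 15.7% lay in promoter peaks, against 1.68% to 13.9% in the others. The Lrrc4c window held 57.1% of its reads in peaks, against 57.6% to 73.8% in the others. The part of this library in the result beyond the values without it was not tested.

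In NeuN+ nuclei, Suz12 at Kmt2a was 25.5, 27.7 and 1.34 normalised reads in WT, 3.28, 7.25 and 18.3 in Mutyh-/-, 7.93, 12.96 and 6.58 in Ogg1-/- and 23.8, 10.4 and 18.1 in DKO. WT alone spanned nearly the whole range, as WT replicate 3 held 1 read and WT replicate 2 held 28. The changes were -0.46, -0.31 and 0.53 with an SE of 1.07 and an exact permutation p of 0.8, 1.0 and 1.0, and 0 of 3 was called, beside 5.16%, 3.74% and 2.58% of all 775 peaks. The directions turned with 1 library: without WT replicate 3 the changes were -1.65, -1.49 and -0.65, and without WT replicate 1 they were 0.10, 0.26 and 1.10. The change in DKO was higher in NeuN+ than in NeuN- nuclei by 3.19 ± 1.65 (SE), for which the unadjusted limma p was 0.0583 and the adjusted one 0.988 over 172 shared peaks. For Mutyh-/- and Ogg1-/- this difference was 0.58 and 2.00, with unadjusted limma p-values of 0.724 and 0.231. Of the shared peaks, 4.07%, 8.14% and 4.65% had a p under 0.05 in Mutyh-/-, Ogg1-/- and DKO. The departure of DKO from the sum of the single knockouts was 1.30 ± 1.51 (SE) in NeuN+ and 0.70 ± 1.54 in NeuN- nuclei, neither of them called, beside 5.16% and 5.45% of all peaks.

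**Figure D5:**
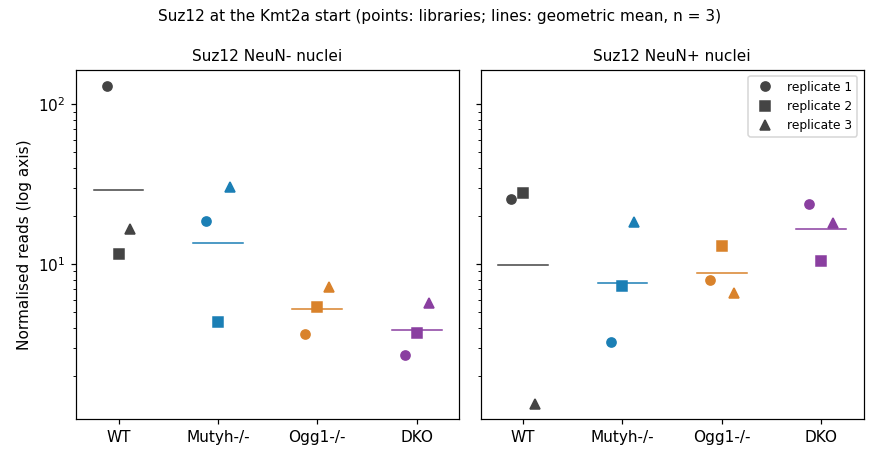
Normalised Suz12 reads at the Kmt2a start on a log axis, with 1 point per library, the replicate number as its shape and the geometric mean of 3 libraries as a line, NeuN- nuclei on the left and NeuN+ nuclei on the right. In NeuN- nuclei WT replicate 1 lies at 131 and the Ogg1-/- and DKO libraries between 2.70 and 7.15, and in NeuN+ nuclei the WT libraries run from 1.34 to 27.7.

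Over all 4 tables, 0 of the 60 member changes had an adjusted limma p under 0.05, beside 0.0157% of all tests in these tables, and 2 had an unadjusted p under 0.05. DESeq2, and edgeR with TMM factors, both run on recovered reads, also gave 0 at an adjusted p under 0.05, and the smallest adjusted p of any setting was 0.0537, from DESeq2 for Kmt2a in DKO in Suz12 NeuN-.

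The wider pathway had no called peak with the factors of the authors. Of 41 genes for subunits, relatives, partners and readers, 38 had a peak in some table, 61 peaks in all, and 0 of their 183 changes met the rule, beside 0.911% to 1.46% of all H3K4me3 peaks in NeuN+ and 2.29% to 3.36% in NeuN- nuclei, so a count of 0 or a few lies near the background. All 4 core subunits (Wdr5, Ash2l, Rbbp5 and Dpy30), all 11 subunits of particular complexes and all 8 readers of H3K4me3 had an H3K4me3 promoter peak in NeuN+ nuclei, as had 5 of 8 relatives, and 9 of 10 LSD1 or LSD2 partners had an H3K4me3 peak there. The 39 NeuN+ H3K4me3 peaks had median changes of -0.13, 0.01 and 0.03 in Mutyh-/-, Ogg1-/- and DKO, beside -0.07, 0.08 and -0.02 over all peaks. H3K27me3 peaks were annotated to 2 of the 41 genes, Zmym2 and Gfi1, a repressor known from blood cell development that recruits LSD1. In NeuN+ nuclei, 1 of their 2 H3K27me3 peaks was a promoter peak. Suz12 had 2 peaks annotated to Gfi1 in NeuN+ nuclei, 1 of them a promoter peak. Both genes are named for these peaks. With TMM factors, which called 3.75% to 5.54% of all H3K4me3 peaks in NeuN+ nuclei, 1 of the 183 changes was called, Paxip1, a subunit of the Kmt2c and Kmt2d complexes, higher in DKO in NeuN+ nuclei by 0.58, and this gene is named because of that call.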

How the data were processed

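Chromatin was immunoprecipitated for 2 histone marks and Suz12 from nuclei sorted on NeuN, with 3 replicates of 4 genotypes in each of 6 tables. The 24 input libraries had no column and were not used here. Single-end reads had been aligned to GRCm38 with Bowtie2 2.3.5.1 per the labels, enriched regions called with epic2, regions in at least 2 replicates kept, reads counted with DiffBind 3.10.1, and each peak annotated to its nearest gene with ChIPseeker 1.36. The treatment of duplicates, blacklisted regions and input is not given in the sources used here. The deposited values are signal, reads per consensus peak divided by the authors by a library factor. Dividing each library by its smallest step gave whole numbers throughout (tolerance 0.001), which were taken as the reads.

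The planned main test was used: limma 3.58.1 (R 4.3.3) with a variance trend on log2(value + 1), the 12 libraries of a table in 1 fit, all peaks tested, Benjamini-Hochberg adjustment within a contrast over the table, no filter. DERs were called at the thresholds of the study, by p before adjustment (0.05) and size (0.5 on the log2 scale). The study took the p from edgeR, and the main test here took it from limma. Single peaks were also given an exact permutation test over the libraries. Fold changes on this scale understate changes at low values. edgeR 4.0.16 and DESeq2 1.42.0 on recovered reads, other pseudocounts (0.5 and 4), a minimum mean of 10 reads, TMM factors, robust moderation, the 6 libraries of a contrast alone, a replicate block and leaving out each library were alternatives. The fit was run on simulated counts with known changes. These were larger than any H3K4me3 change of the members, so the run does not measure the power at the sizes reported here. Windows were read from the GRCm38.p6 sequence and annotated with GENCODE vM21, and promoters were taken from RefSeq.

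To see whether replicate numbers pair libraries, deviations from the genotype means were correlated over peaks between libraries of the same number. For Mutyh-/- in Suz12 NeuN+ the 3 correlations with WT were between 0.119 and 0.388, all above 0.1. The numbers, taken from the labels, were treated as pairing these libraries in the replicate block only. The changes and exact tests given in the results are unpaired. In every other contrast at least 1 was at or under 0.1. The WT library of the same number was nonetheless the best match for 3 of 3 libraries of Ogg1-/- and of DKO in Suz12 NeuN+, and for 0 to 3 over all contrasts. No 2 libraries of a genotype agreed within sampling noise. The labels give no more on the pools than a number, so p-values measure the spread between these samples, which may be technical.

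The members and gene lists were chosen with earlier results of these data known. The rule for genes named with changes took the members, pathway genes with a called peak, Ogg1 and Mutyh, and the 3 genes most like the members' mean. Marker genes, other genes of the pathway list, neighbours of the windows and genes at the nearest H3K27me3 peaks are named for their position or peaks alone.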

Additional observations from a re-analysis of the deposited data

How the results depend on the processing

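The 2 calls of Suz12 NeuN- stayed 2 with the replicate block, other pseudocounts, TMM factors, edgeR, DESeq2 and the 6 libraries of a contrast, and fell to 1 with a minimum mean of 10 reads and to 1 with robust moderation. Leaving out 1 library gave 0 to 2 there, with 0 without WT replicate 1. In H3K4me3 NeuN+ the count of 0 became 6 with limma on TMM factors, which called 3.75% to 5.54% of all peaks there. It became 5 with edgeR on TMM factors and 4 with DESeq2, and 0 to 2 when 1 library was left out. The shares of all peaks called by edgeR on TMM factors and by DESeq2 are not given here, so these 2 counts have no background beside them. In H3K4me3 NeuN- the count was 0 to 1 when 1 library was left out. Differences between fractions at p under 0.05 numbered 0, and 0 to 2 when 1 library was left out, the latter with Kmt2c in Ogg1-/- and Suz12 at Kmt2a in DKO. The pathway list had 1 call with TMM factors. No member change passed an adjusted p of 0.05 under any alternative, and the departure of DKO from additivity stayed at 0 calls. Ranking among all peaks kept 9 of 11 H3K4me3 NeuN+ peaks over the 50th percentile. Of 1320 single changes refitted, 96 uncalled ones changed sign and 0 called ones did. With the replicate block, which pairs libraries in Suz12 NeuN+ Mutyh-/-, the counts of calls were 0 in Suz12 NeuN+ and 2 in Suz12 NeuN-, and no call of a member changed. The Suz12 window of Kmt2a held 1 to 28 reads in a NeuN+ and 3 to 117 in a NeuN- library, so depth limits what can be seen there. The causes of these differences were not tested.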
